A study of Mus musculus with 8 samples.

Results

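Mutations in the genes described here cause inherited hearing loss in people, and 46 of them were chosen by name for a look at the embryonic mouse cochlea. Of these, 43 were found by symbol among the 42775 genes of the deposited expression table. The other 3 are listed there under other symbols (Adgrv1 as Gpr98, Diaph1 as Diap1 and Lrtomt as Tomt) and were matched by Ensembl identifier. They are given separately, outside every count except the closing tallies of outlying libraries and of alternative fits. The rule that named the 46 genes used no expression value, but they and the gene lists used below were chosen with earlier results of these data known.

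The libraries came from cochleas of wild-type Swiss Webster mice, explanted at E12.5, cultured for 24 h and named E14.0 as their source. The study itself reports the stage as E14.0, and how this fits with explants made at E12.5 is not stated. The control group received vehicle (DMSO per the methods of the study). The CHIR99021 group received 10 μM CHIR99021, an inhibitor of the kinase GSK3 that stabilises β-catenin and so turns on Wnt signaling, for 6 h. Each group held 4 libraries described as biological replicates, with replicates 1 and 3 labelled female and replicates 2 and 4 labelled male. How many cochleas or embryos went into a library, and whether the groups' same-numbered libraries came from 1 litter, is not given in the sources used here. Explants hold the whole cultured tissue, so the values are averages over epithelium and surrounding cells.

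Hearing depends on hair cells, each of which carries a bundle of actin-filled stereocilia joined by tip links. Sound bends the bundle, tension in the tip links opens transduction channels, and a synapse passes the signal to the auditory neuron. The supporting epithelium and the stria vascularis keep the surrounding endolymph rich in potassium by way of gap junctions, ion transporters and tight junctions. Known deafness genes fall on each of these steps, and hair cells of the mouse cochlea only begin to differentiate around the stage cultured here.

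The depth, as implied by the size of 1 read in each library, was 66.5 to 89.3 M reads in control and 64.9 to 75.4 M reads in CHIR99021, and 1 read was worth 0.0112 to 0.0154 CPM (the library-scaled unit of the table). The libraries fell into pairs by the number of genes with a read, with 22838 to 24249 in replicates 1 and 4 of both groups and 20301 to 20698 in replicates 2 and 3. Each of these pairs holds a female and a male library. All 8 genes of an otic epithelium marker list were measured at a mean of at least 1 CPM, and their sum was 3867 to 4108 CPM in control and 3714 to 4014 CPM in CHIR99021. A hair cell list of 10 genes, 3 of them among the genes described here, summed to 149 to 184 CPM in control and 123 to 151 CPM in CHIR99021. Most of that sum was Myo6 (138 CPM in control), a myosin that is not limited to hair cells. The early hair cell transcription factors were low, with Atoh1 at 1.80 and Pou4f3 at 3.16 CPM in control, and no gene of this list was at 0 in all libraries.

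First, the deafness genes already expressed without CHIR99021 were identified. A gene was counted as expressed if it reached 1 CPM in each of the 4 control libraries, as low if its control mean was at least 0.1 CPM, and as near zero below that. By this rule 27 of 43 genes were expressed, 12 were low and 4 were near zero, where 32% of all genes of the table were expressed. That share is over 42775 genes, of which 15944 had no read in any library, as did 1 of the 43. Of the 19 genes whose products build or run the hair bundle, 9 were expressed, 7 were low and 3 were near zero. Of the 24 others, 18 were expressed. To compare levels between genes, CPM was divided by the length of the gene's exons in kb.

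**Figure D1:**
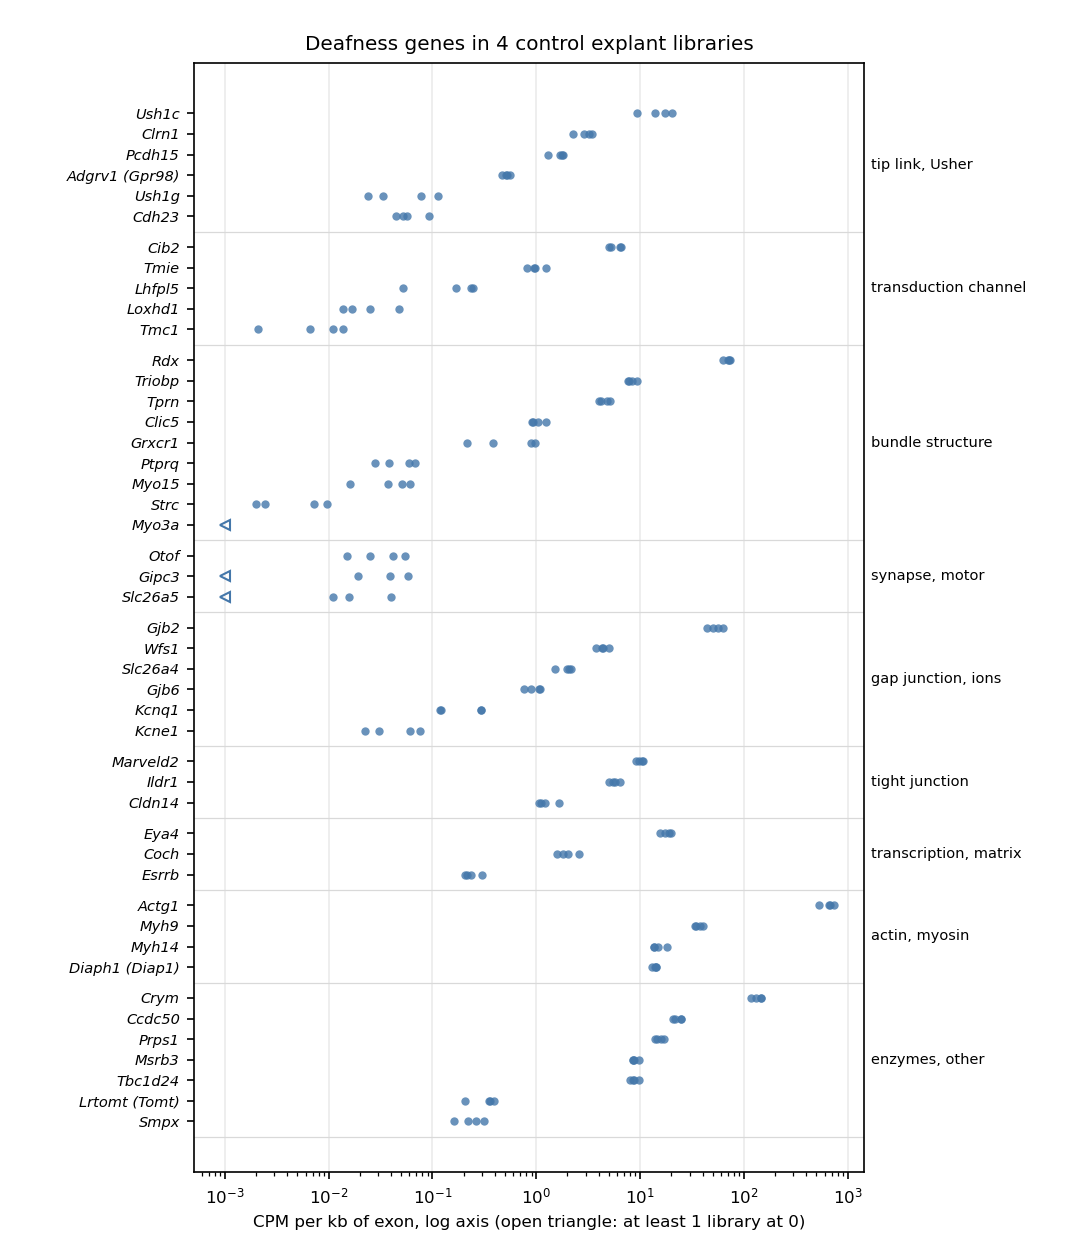
Control levels of the deafness genes by role. Each point is 1 of 4 control libraries, the horizontal axis is CPM per kb of exon on a log scale, and an open triangle at the left marks a gene at 0 in at least 1 library. Actg1 (649 CPM per kb) leads, and Strc (0.00531), the transduction channel gene Tmc1 (0.00836) and the prestin gene Slc26a5 (0.0167) stand far to the left. Myo3a is at 0 in every library.

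The most abundant genes in control were Actg1, Crym, Rdx, Gjb2 and Myh9. Actg1, which encodes cytoplasmic γ-actin, was at 649 ± 87.3 CPM per kb (SD, n = 4), and since it shares sequence with other actin genes and processed copies, its count is uncertain. Crym, a thyroid hormone-binding protein, followed at 135 ± 14.7 CPM per kb. Rdx, the radixin that ties stereocilia membrane to actin and is used in many other cells, was at 69.9 ± 4.82 CPM per kb. The gap junction gene Gjb2 was at 53.8 ± 7.95 CPM per kb, with its highest library just above the lowest of Rdx, and all of its libraries above those of Myh9 (36.5 ± 2.99 CPM per kb). The lowest of the expressed genes per kb was the nuclear receptor Esrrb (0.241 ± 0.0434 CPM per kb). Above it came Adgrv1 (0.517 ± 0.0358), matched by identifier, Gjb6 (0.951 ± 0.155), the transduction channel subunit Tmie (0.995 ± 0.178), Clic5 (1.03 ± 0.152) and Cldn14 (1.26 ± 0.282), and the libraries of the last 4 overlapped those of the next gene in this order.

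Among the tip link genes, levels differed widely within the complex itself. Pcdh15, the lower strand of the tip link, was read in control at 38.9 ± 5.40 CPM, whereas Cdh23, the upper part, was at 1.04 ± 0.354 CPM. Per kb of exon these were 1.64 ± 0.227 and 0.0615 ± 0.0209, and no library of one overlapped a library of the other. Ush1c, the harmonin scaffold at the upper tip link anchor, was at 58.4 ± 17.8 CPM, and its partner Ush1g at 0.204 ± 0.136 CPM. Clrn1, the small membrane protein clarin-1, was at 11.3 ± 2.00 CPM. Adgrv1, which forms the ankle links between young stereocilia and was matched by identifier, was at 12.9 ± 0.892 CPM.

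The channel genes were split in the same way. Cib2, a calcium-binding subunit of the transduction channel, was at 8.35 ± 1.13 CPM in control, and 15.8% of its exon length is shared with Sh2d7 on the opposite strand. Tmie was at 3.08 ± 0.552 CPM. Lhfpl5 (0.418 ± 0.212 CPM) and Loxhd1 (0.230 ± 0.134 CPM) were low. Tmc1, which forms the channel pore, had 20 reads over the 4 control libraries and was at 0.0601 ± 0.0366 CPM.

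The remaining bundle genes ranged from the broadly used to the nearly silent. Triobp, which bundles actin in the stereocilia rootlet, was at 102 ± 9.86 CPM in control, Tprn (taperin, found at the stereocilia base) at 13.4 ± 1.5 CPM, and Clic5, another protein of the stereocilia base, at 9.08 ± 1.34 CPM. Grxcr1 (0.663 ± 0.407 CPM), the stereocilia motor Myo15 (0.531 ± 0.251 CPM) and the shaft connector phosphatase Ptprq (0.362 ± 0.137 CPM) were low. Strc, stereocilin of the outer hair cell bundle, had 11 reads over the control libraries. Myo3a, a motor that carries cargo to stereocilia tips, had 0 reads in all 8 libraries, which allows up to 0.0336 to 0.0462 CPM per library (3 reads, covering counting error only).

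None of the 3 genes of the hair cell synapse and motor was expressed by the rule. Otof, the calcium sensor of the hair cell synapse, was at 0.269 ± 0.136 CPM in control. Gipc3, an adaptor protein, was at 0.102 ± 0.0879 CPM. Slc26a5, prestin, the motor of the outer hair cell, had 17 reads over the control libraries and none in control replicate 2.

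Genes of endolymph homeostasis were unevenly expressed as well. Gjb2 and Gjb6 encode connexins that join in the same cochlear gap junctions and are neighbours on chromosome 14, 18.6 kb apart. Gjb2 was at 129 ± 19.1 CPM and Gjb6 at 2.54 ± 0.414 CPM, which per kb of exon is 53.8 ± 7.95 against 0.951 ± 0.155. Wfs1, a protein of the endoplasmic reticulum, was at 16.6 ± 1.94 CPM, and Slc26a4, the anion exchanger pendrin, at 6.02 ± 0.885 CPM. The potassium channel of the strial marginal cells was low for both subunits, Kcnq1 at 0.848 ± 0.414 CPM and Kcne1 at 0.153 ± 0.0817 CPM. Kcnq1 shares 2.96% of its exon length with the antisense transcript Kcnq1ot1.

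All 3 tight junction genes were expressed in control, Marveld2 (tricellulin) at 33.6 ± 2.21 CPM, its recruiting partner Ildr1 at 24.4 ± 2.46 CPM and Cldn14 at 2.68 ± 0.60 CPM. So were the 3 genes of transcription and matrix, with the coactivator Eya4 at 169 ± 17.3 CPM, the matrix protein Coch at 5.96 ± 1.25 CPM and Esrrb at 1.46 ± 0.263 CPM. The nonmuscle myosins Myh9 and Myh14 were at 472 ± 38.6 and 109 ± 15.3 CPM, and the formin Diaph1, matched by identifier, at 88.2 ± 3.79 CPM. Among the other genes, the control levels were 199 ± 18.3 CPM for Ccdc50, 74.9 ± 6.25 CPM for Tbc1d24, a protein of vesicle traffic, 35.9 ± 2.31 CPM for Msrb3, which repairs oxidised methionine, and 30.4 ± 2.68 CPM for Prps1, an enzyme of nucleotide synthesis. Smpx, named for its high level in muscle, was at 0.545 ± 0.149 CPM. Lrtomt, matched as Tomt, was at 0.936 ± 0.235 CPM, but 69.3% of its exon length lies under Anapc15 on the opposite strand.

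Next, the 4 control libraries were compared with the 4 CHIR99021 libraries to ask which deafness genes responded to GSK3 inhibition within 6 h. By the main test no tested gene was called higher, and 7 were called lower, namely Clic5, Clrn1, Slc26a4, Tmie, Eya4, Myh14 and Tbc1d24. The calls of Gjb2 and Tbc1d24 changed under other fits, and Esrrb lay below the filter of this test. The test was limma on log2(CPM + 1) for the 14264 genes with a mean of at least 1 CPM, with Benjamini-Hochberg adjustment over all of them and a threshold of 0.05. It covered 27 of the 43 genes, of which 7 were lower, 0 higher and 20 did not pass. By the same test 21.4% of all genes were lower and 12.3% higher, so the share of deafness genes that fell was close to that of all genes. The median log2 fold change was -0.12 over the 27 genes and -0.05 over all genes tested. It was negative in 19 of the 27 genes and in 57.7% of all genes. In 8 of the 27 genes every CHIR99021 library lay below every control library (the 7 and Msrb3), against 20.6% of all genes, and in 0 of them above, against 12.7%.

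**Figure D2:**
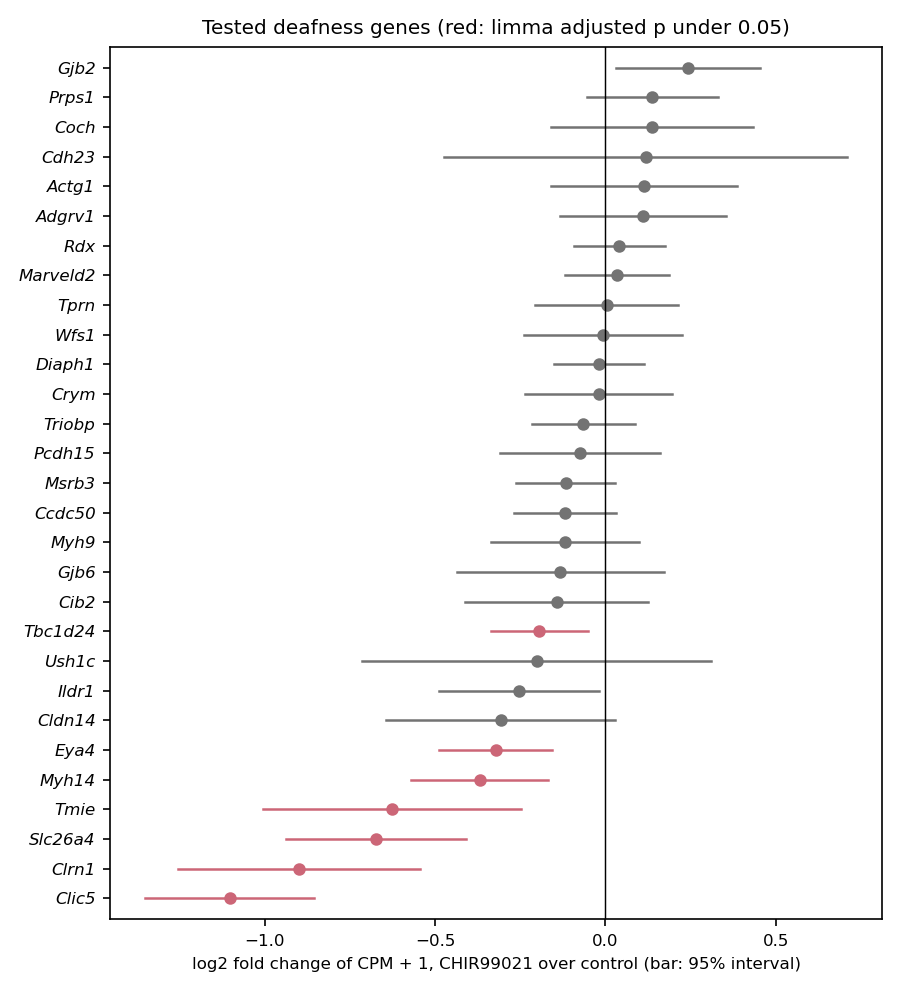
Response of the tested deafness genes to CHIR99021. Points are limma log2 fold changes of CPM + 1 (CHIR99021 over control, 4 libraries each), bars are 95% confidence intervals, red marks an adjusted p below 0.05, and Adgrv1 and Diaph1 are included by identifier. Clic5 (-1.10) and Clrn1 (-0.90) lie farthest from 0, and the highest estimate, that of Gjb2 (0.24), did not pass.

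The scaling of the libraries bore on the calls of Tbc1d24 and Gjb2. After TMM scaling (trimmed mean of M-values), which moved the median of all genes by 0.06 on the log2 scale, 6 of the genes stayed lower, Tbc1d24 was lost (adjusted p = 0.137) and Gjb2 was gained. The split over all genes moved with it, to 17.2% higher and 16.1% lower. By edgeR on the reads recovered from the CPM, 7 of 36 genes were lower and 1 higher, where 12.8% of all genes were higher and 12.6% lower. Differences of CPM between these bulk samples cannot tell fewer cells of a type from less RNA per cell.

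Clic5 had the largest fall among the tested genes. It lies at chr17:44188584-44280172 (GRCm38, plus strand). Its control libraries read 8.26, 9.16, 10.9 and 7.97 CPM for replicates 1 to 4, and its CHIR99021 libraries 3.63, 3.74, 3.74 and 3.55 CPM. The groups did not overlap, and the CHIR99021 libraries were nearly equal. The mean went from 9.08 ± 1.34 to 3.67 ± 0.0945 CPM (SD, n = 4), a 2.48-fold fall, with a log2 fold change of -1.10 (SE 0.11, 95% interval -1.35 to -0.85, limma adjusted p = 5.00e-05). It passed also in replicates 1 and 4 alone (-0.99) and in replicates 2 and 3 alone (-1.22). Within replicates 1 and 4, 5 deafness genes were lower and 0 higher (15% and 8.09% of all genes), and within replicates 2 and 3, 3 were lower and 0 higher (7.41% and 4.28% of all genes).

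Clrn1 (chr3:58844028-58885340, minus strand) fell in both pairs of replicates, with log2 fold changes of -0.97 in replicates 1 and 4 and -0.83 in replicates 2 and 3. Control libraries read 13.2, 11.1, 12.4 and 8.63 CPM, and CHIR99021 libraries 6.27, 6.39, 5.93 and 3.89 CPM. Replicate 4 was the lowest of its group on both sides, and the groups did not overlap. The log2 fold change was -0.90 (SE 0.16, limma adjusted p = 0.00169), from 11.3 ± 2.00 to 5.62 ± 1.17 CPM.

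Slc26a4 (chr12:31519827-31559969, minus strand) is needed in the endolymphatic sac and outer sulcus to condition the endolymph. It read 6.13, 4.75, 6.40 and 6.79 CPM in control and 3.09, 3.44, 3.48 and 3.50 CPM in CHIR99021. All treated libraries were lower than all controls. The log2 fold change was -0.67 (SE 0.12, limma adjusted p = 0.00167), from 6.02 ± 0.885 to 3.38 ± 0.194 CPM. It passed in replicates 1 and 4 alone (-0.80, adjusted p = 0.00772) and not in replicates 2 and 3 alone (-0.55, adjusted p = 0.135).

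Tmie (chr9:110865711-110880113, minus strand) encodes a subunit that couples the channel to tension. Its libraries read 2.54, 3.85, 2.93 and 2.99 CPM in control and 1.05, 2.19, 2.09 and 1.35 CPM in CHIR99021. Replicates 1 and 4 of CHIR99021 were the lower ones, and no treated library reached a control. The log2 fold change was -0.63 (SE 0.17, limma adjusted p = 0.0169), from 3.08 ± 0.552 to 1.67 ± 0.559 CPM. In replicates 2 and 3 alone it did not pass (-0.48, adjusted p = 0.213), and Als2cl on the opposite strand covers 7.89% of its exon length.

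The other 3 genes that passed were abundant and changed less. Eya4 (chr10:23102963-23350786), a transcriptional coactivator, read 187, 179, 148 and 163 CPM in control and 142, 129, 128 and 141 CPM in CHIR99021. The gap between the groups was small, but none of the libraries crossed it, and the log2 fold change was -0.32 (SE 0.08, limma adjusted p = 0.00757). Myh14 (chr7:44605803-44670843) read 98.6, 108, 98.4 and 131 CPM in control and 84.2, 76.2, 84.2 and 90.2 CPM in CHIR99021. Its groups did not overlap either, with a log2 fold change of -0.37 (SE 0.09, limma adjusted p = 0.00977). Eya4 lost its call in replicates 2 and 3 alone (-0.34, adjusted p = 0.0607), and Myh14 in replicates 1 and 4 alone (-0.38, adjusted p = 0.0676), at changes of similar size. Tbc1d24 (chr17:24175431-24205562) read 73.0, 83.5, 68.7 and 74.3 CPM in control and 63.7, 67.7, 63.9 and 65.3 CPM in CHIR99021. This smallest of the called changes, a log2 fold change of -0.19 (SE 0.06, limma adjusted p = 0.0385), lost its call without each of control replicates 1, 2 and 4 and CHIR99021 replicates 1, 3 and 4 (adjusted p = 0.0557 to 0.103), as well as by edgeR (adjusted p = 0.157).

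**Figure D3:**
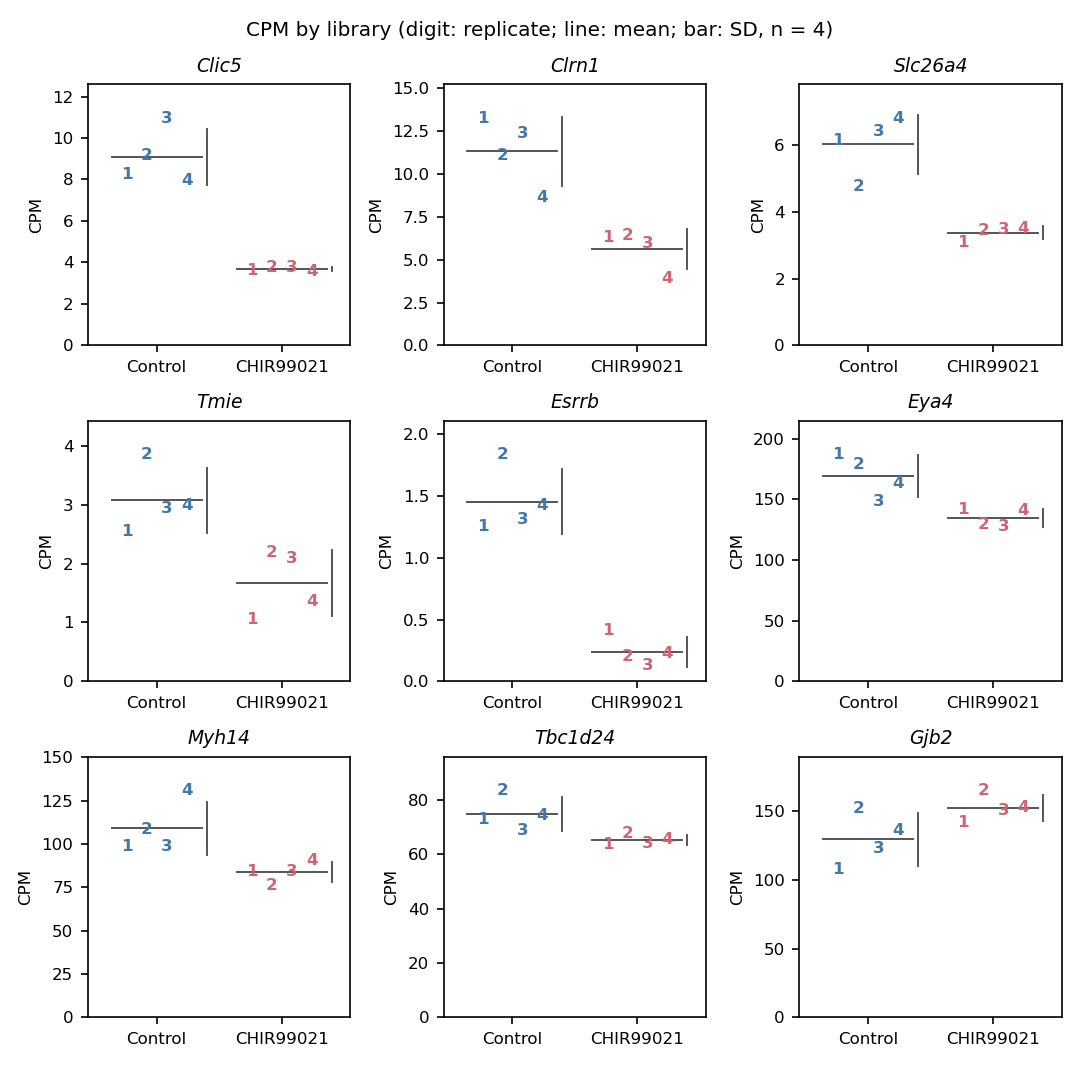
CPM of 9 deafness genes in each library. Digits are replicate numbers, horizontal lines are means and vertical bars are SD (n = 4); each vertical axis is CPM and starts at 0. In Clic5, Clrn1, Slc26a4, Tmie, Esrrb, Eya4, Myh14 and Tbc1d24 every CHIR99021 library lies below every control library, while Gjb2 overlaps (107 to 152 CPM in control, 142 to 165 CPM in CHIR99021).

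The largest fall in proportion was in Esrrb (chr12:86361117-86521628, plus strand), an orphan nuclear receptor needed in the marginal cells of the stria vascularis. Its mean over the 8 libraries was below 1 CPM, so it was tested by edgeR on recovered reads instead, a choice made after the values were seen. Control libraries read 1.25, 1.84, 1.31 and 1.42 CPM (458 reads in all), and CHIR99021 libraries 0.411, 0.200, 0.126 and 0.226 CPM (68 reads). The groups were far apart, and replicate 1 was the highest of the treated libraries. The mean fell 6.05-fold, from 1.46 ± 0.263 to 0.241 ± 0.121 CPM, with an edgeR log2 fold change of -2.52 (adjusted p = 7.91e-04 over 18116 genes). Leaving out any 1 library gave -2.91 to -2.30, with adjusted p between 5.98e-04 and 0.00355. It passed also with limma without the filter (-0.98 on log2(CPM + 1), which understates changes at low levels, adjusted p = 6.01e-04).

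The sequence just upstream of the start is printed for Esrrb and for Clic5, Clrn1 and Slc26a4, the 3 genes with the smallest limma adjusted p, as the regulatory sequence nearest to each. They are reference sequences from RefSeq (GRCm38.p6, the C57BL/6J genome, not the Swiss Webster strain used), 5′ to 3′ on the strand of the gene, from chr12:86360867-86361116 for Esrrb, chr17:44188322-44188571 for Clic5, chr3:58885341-58885462 for Clrn1 and chr12:31559985-31560234 for Slc26a4. The Clrn1 stretch is shorter because only bases before both annotated starts are shown.
Esrrb: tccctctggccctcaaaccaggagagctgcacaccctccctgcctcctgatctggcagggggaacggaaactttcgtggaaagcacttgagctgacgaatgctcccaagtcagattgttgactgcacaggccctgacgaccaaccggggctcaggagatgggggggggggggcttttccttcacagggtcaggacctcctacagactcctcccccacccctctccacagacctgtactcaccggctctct
Clic5: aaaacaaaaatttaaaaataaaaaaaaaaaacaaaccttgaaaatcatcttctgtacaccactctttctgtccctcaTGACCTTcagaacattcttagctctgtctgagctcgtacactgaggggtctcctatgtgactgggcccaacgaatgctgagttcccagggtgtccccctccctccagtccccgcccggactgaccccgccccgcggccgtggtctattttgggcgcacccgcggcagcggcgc
Clrn1: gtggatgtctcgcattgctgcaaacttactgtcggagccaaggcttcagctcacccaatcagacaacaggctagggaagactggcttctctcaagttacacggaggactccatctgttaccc
Slc26a4: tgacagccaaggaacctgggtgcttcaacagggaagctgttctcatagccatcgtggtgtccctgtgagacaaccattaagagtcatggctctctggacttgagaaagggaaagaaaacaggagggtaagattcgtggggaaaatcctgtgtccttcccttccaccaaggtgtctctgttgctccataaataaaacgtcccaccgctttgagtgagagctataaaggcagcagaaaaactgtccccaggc
The capitals in Clic5 mark a match, on the opposite strand, to AAGGTCA, the letters bound by ESRRB and other orphan nuclear receptors. The windows searched ran from 250 bases before to 50 after each start, on both strands. AAGGTCA was found in 4.72% of 32851 windows and in those of 2 (Clic5 and Tbc1d24) of the 37 deafness genes with a window. CTTTGAT, a core of the TCF/LEF sites through which β-catenin acts, was in 3.73% of windows and in 0 of the 37. The related CTTTGTT was in 5.85% of windows and in those of Clrn1, outside the stretch printed, and Rdx. These matches are descriptions of letters only.

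Of the genes that did not pass, Gjb2 came nearest, and it pointed upward. Its libraries read 107, 152, 123 and 136 CPM in control and 142, 165, 150 and 152 CPM in CHIR99021. Each treated library was above the control of the same number, but the groups overlapped. The log2 fold change was 0.24 (SE 0.10, limma adjusted p = 0.0726), from 129 ± 19.1 to 152 ± 9.61 CPM. Same-numbered libraries of the groups deviated together across genes, and with the replicate number as a block Gjb2 passed (adjusted p = 0.00728), as it did by edgeR (0.30, adjusted p = 0.0425) and without control replicate 2 (0.32, adjusted p = 0.0192). Its neighbour Gjb6 went from 2.54 ± 0.414 to 2.23 ± 0.357 CPM with a log2 fold change of -0.13 (95% interval -0.44 to 0.17). Whether the response of these neighbours differed was not tested.

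The block also brought in Ildr1, one of the tight junction genes, which read 21.6, 27.6, 24.4 and 23.8 CPM in control and 17.1, 23.0, 22.1 and 19.1 CPM in CHIR99021. Every treated library was below its same-numbered control, and the groups overlapped. The log2 fold change was -0.25, with a limma adjusted p of 0.0895 without the block and 0.0164 with it. In that fit 8 of the 27 genes were lower and 1 higher, against 26.1% and 15.4% of all genes. For the other tight junction genes the estimates were -0.31 for Cldn14 (95% interval -0.64 to 0.03) and 0.03 for Marveld2 (95% interval -0.12 to 0.19), and the latter falls to -0.0042 without control replicate 1.

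For the rest of the tested genes the estimates were close to 0 or wide. Msrb3 had no overlap between the groups (34.6 to 39.4 CPM in control, 31.4 to 34.2 in CHIR99021), but its log2 fold change of -0.12 did not pass (adjusted p = 0.198). Intervals were narrow for Rdx (0.04, 95% interval -0.09 to 0.17) and Triobp (-0.06, 95% interval -0.22 to 0.09). Pcdh15 went from 38.9 ± 5.40 to 36.7 ± 3.63 CPM (-0.08, 95% interval -0.31 to 0.16), and Cib2 from 8.35 ± 1.13 to 7.47 ± 1.02 CPM (-0.14, 95% interval -0.41 to 0.13). The estimates were 0.11 for Actg1, -0.12 for Myh9 and for Ccdc50, 0.14 for Prps1 and for Coch, and within 0.02 of 0 for Crym, Wfs1 and Tprn. Of the genes matched by identifier, Adgrv1 (0.11, 95% interval -0.13 to 0.36) and Diaph1 (-0.02, 95% interval -0.15 to 0.11) did not pass.

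Ush1c and Cdh23 varied more between replicates than between groups. Ush1c read 77.6, 53.2, 36.3 and 66.7 CPM in control and 64.5, 38.1, 38.3 and 59.9 CPM in CHIR99021. In both groups replicates 1 and 4, the libraries with more genes detected, were the higher ones, with means of 72.1 against 44.7 CPM in control and 62.2 against 38.2 CPM in CHIR99021. Cdh23 read 1.56, 0.887, 0.756 and 0.964 CPM in control and 1.38, 0.447, 0.768 and 2.80 CPM in CHIR99021. Its log2 fold change of 0.12 (95% interval -0.47 to 0.71) became -0.15 without CHIR99021 replicate 4. In all, 3 of the 27 tested genes (Myh9, Ush1c and Cdh23) had replicates 1 and 4 above 2 and 3 in both groups, against 10% of all genes, and 4 (Marveld2, Prps1, Ildr1 and Clic5) had the reverse, against 10.4%.

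Among the 16 genes under the filter, 9 had CHIR99021 replicates 1 and 4 above replicates 2 and 3, and 2 had this order in control. Of all genes with a read and a mean under 1 CPM, 20.6% had the order in CHIR99021 and 22.1% in control. Of the 16, the 13 with a mean of 0.1 to 1 CPM gave counts of 7 and 2. In that range 26.8% of all genes had the order in CHIR99021 and 25% in control. Tmc1 had the reverse order in CHIR99021. The means of replicates 1 and 4 and of 2 and 3 in CHIR99021 were 0.573 and 0.121 CPM for Ptprq, 0.324 and 0.0419 CPM for Otof, 0.420 and 0.0628 CPM for Lhfpl5, and 0.603 and 0.0558 CPM for Loxhd1. Otof, Lhfpl5 and Loxhd1 had no read in CHIR99021 replicate 2. In the hair cell list 6 of 10 genes had this order in CHIR99021 (Otof, Myo6, Gfi1, Pou4f3, Cdh23 and Lhx3). Tmc1 had the reverse there, and Atoh1, Espn and Myo7a had neither. In control 3 of the 10 had replicates 1 and 4 above 2 and 3 (Myo7a, Cdh23 and Tmc1). No share of all genes was taken for this list, which also holds genes with means above 1 CPM, such as Myo6 and Pou4f3. The part that hair cell number, or the depth of detection, had in this order was not tested.

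**Figure D4:**
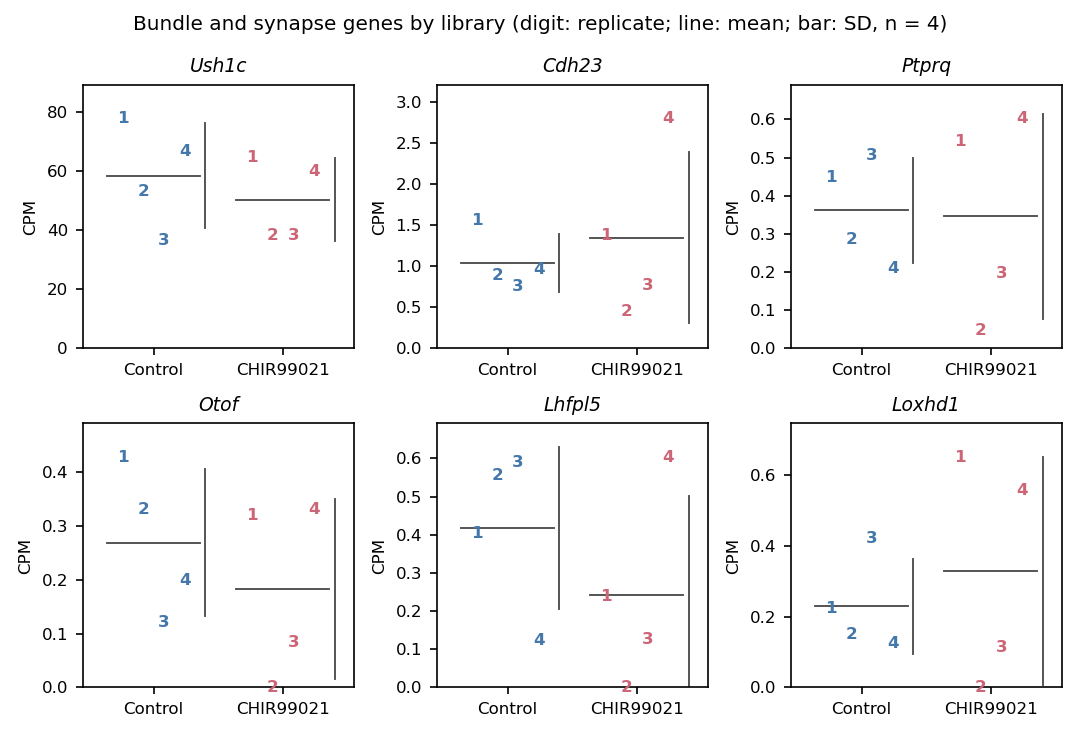
CPM of 6 bundle and synapse genes in each library. Digits are replicate numbers, horizontal lines are means and vertical bars are SD (n = 4), on axes of CPM that start at 0. The genes were chosen for having CHIR99021 replicates 1 and 4 above 2 and 3, and in control Ush1c and Cdh23 show this order while the other 4 do not.

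By edgeR, Esrrb passed among the 9 genes under the filter that it could test, and the other 8 did not. Smpx had no overlap between groups (0.370 to 0.720 CPM in control, 0.169 to 0.358 in CHIR99021), with an edgeR log2 fold change of -1.03 (adjusted p = 0.108) and, with limma without the filter, an adjusted p of 0.0361. A list of 6 skeletal muscle genes summed to 1.58 to 3.53 CPM in control and 1.80 to 4.41 CPM in CHIR99021, and 0 of its 2 tested genes passed. The edgeR estimates for Grxcr1 (0.49), Kcnq1 (-0.40), Otof (-0.47), Lhfpl5 (-0.72), Loxhd1 (0.58), Myo15 (0.06) and Ptprq (0.00362) had adjusted p between 0.521 and 0.998, and did not pass. Of the 7 genes under both filters, Ush1g had 64 reads in control and 12 in CHIR99021 with overlapping libraries (0.0784 to 0.372 and 0 to 0.0838 CPM), and Tmc1 20 and 45 reads. Kcne1 had 49 and 18 reads, Gipc3 34 and 35, Slc26a5 17 and 15, and Strc 11 in each group.

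Marker lists of other cells in the explant were measured beside these falls, and the share of all genes lower was 21.4% by the same test. A glia list of 6 genes summed to 653 to 714 CPM in control and 470 to 503 CPM in CHIR99021, with 4 of 5 tested genes lower. A neuron list of 8 summed to 80.1 to 107 and 49.0 to 77.0 CPM (2 of 7 lower), and a cartilage list of 6 to 4551 to 5879 and 3565 to 4074 CPM (4 of 6 lower). A mesenchyme list of 8 summed to 2136 to 2199 and 1928 to 2058 CPM (3 lower, 3 higher), and 9 genes of the prosensory epithelium to 589 to 659 and 656 to 722 CPM (5 lower, 3 higher). The lists for melanocytes (68.5 to 85.9 and 56.5 to 87.0 CPM), endothelium (71.7 to 95.1 and 60.8 to 75.3 CPM) and blood with macrophages (73.3 to 136 and 63.4 to 93.0 CPM) overlapped between the groups. Of their tested genes, 1 of 4, 1 of 5 and 2 of 5 were lower, in that order, and 0 higher. The sums of the otic epithelium list overlapped as well, with 3 of 8 genes lower and 0 higher. In the hair cell list Atoh1 rose (0.61, adjusted p = 0.0341), Espn fell (-0.45, adjusted p = 0.0134) and Myo6 fell (-0.33, adjusted p = 0.00909), all by limma, while 3 of its 6 tested genes did not pass. The part of these cell types in the falls of Clic5, Clrn1, Slc26a4, Tmie, Eya4, Myh14, Tbc1d24 and Esrrb was not tested.

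The response was also compared between female and male libraries, 2 per sex and group. By limma's interaction test 0 of 14264 genes passed, with 181 at an unadjusted p under 0.05 (1.27%), and 0 of these were among the 27 deafness genes. Over the 27 genes, the 95% interval of the sex difference reached a median of 0.47 on the log2 scale to either side of the estimate, so that a difference as large as the fall of Myh14 could have been missed.

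Finally, a further list of 70 deafness genes, 67 of them in the table, gives the wider family. Of 58 tested, 7 were higher, 24 lower and 27 did not pass, with a median log2 fold change of -0.19, beside 12.3% higher, 21.4% lower and a median of -0.05 for all genes. After TMM scaling 7 were higher and 19 lower, beside 17.2% and 16.1% of all genes. By edgeR the counts were the same, beside 12.8% and 12.6% of all genes. How many of the 67 genes edgeR tested is not given here. Otogl, a component of the acellular membranes over the sensory epithelia, went from 255 ± 22.3 to 135 ± 7.70 CPM (-0.91, limma adjusted p = 7.38e-06). Osbpl2, a lipid transfer protein, went from 40.0 ± 1.77 to 27.0 ± 0.898 CPM (-0.55, limma adjusted p = 9.22e-05). In the other direction, Met, the receptor of hepatocyte growth factor, was at 18.7 ± 1.58 CPM without and 40.8 ± 3.31 CPM with CHIR99021, a log2 fold change of 1.09 (limma adjusted p = 7.87e-06). Tcof1, a nucleolar protein of ribosome production, was at 92.9 ± 4.86 CPM without and 141 ± 8.85 CPM with it (0.59, limma adjusted p = 5.52e-05). Cartilage genes are in both this list and the one above, so the counts are not independent.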

How the data were processed

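RNA from 8 explant libraries (4 control, 4 CHIR99021) was polyA-selected, strand-specific and sequenced as 75 bp paired ends. The authors mapped reads to GRCm38 with HISAT2 and deposited CPM per gene and library without pooling; the counter is not given in the sources used here. The authors' own comparisons in the table (fold ratios, log2 fold changes, p and FDR, overall and by sex) were not used. Samples were grouped by their labels.

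CPM steps gave whole reads for 100% of values (within 0.001 read), and the table holds 99.7% of each total. Identifiers were matched to GENCODE M21 (42545 genes, 99.5%) for coordinates and exon length. Groups were compared with limma 3.58.1 (R 4.3.3) on log2(CPM + 1), genes of a mean of at least 1 CPM, Benjamini-Hochberg adjustment, after the code was tested on simulated data. The fold change is on the log2(CPM + 1) scale and understates changes at low levels. The p-values set the difference between groups against the spread between libraries within groups. What that spread covers is uncertain, since the embryos and litters behind each library are not given. Alternatives were edgeR 4.0.16 (quasi-likelihood) and DESeq2 1.42.0 on recovered reads, TMM scaling, pseudocounts of 0.25 and 4, other filters, sex as a covariate, the replicate block, replicate subsets and leaving out each library; those for genes under the filter, by edgeR, were added after the data were seen.

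Same-numbered libraries deviated together across genes once group means were removed (r = 0.51, 0.25, 0.35 and 0.34 for replicates 1 to 4); the labels state no pairing, so the block is given where it changes a call. The deafness genes and lists were chosen with earlier results of these data known. Every deafness gene is accounted for; of the further list, the 4 called genes with the smallest p and no overlap are named, and marker genes only where a result turns on them. The genes plotted by replicate order were chosen after their values were seen.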

Additional observations from a re-analysis of the deposited data

Results flagged for a closer look

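The groups of 4 libraries examined numbered 90, those of the genes matched by identifier included. Of these, 2 held a library that stood apart from the other 3 of its group by Dixon's test. Chance gives about 1 in 20 groups (4.5 here). For Msrb3, control replicate 3 read 39.4 CPM and the other controls 34.6 to 35.0 CPM. For Slc26a4, CHIR99021 replicate 1 read 3.09 CPM and the other CHIR99021 libraries 3.44 to 3.50 CPM.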

How the results depend on the processing

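The direction and call of Clic5 and Clrn1 held under every alternative run. The alternatives were tallied over the deafness genes tested by limma or edgeR, here including the 3 matched by identifier. Direction and call were kept in 554 comparisons, while 18 lost a call, 9 gained one and 35 changed sign. None of the last had a call. The count of deafness genes that rose was 1 rather than 0 (Gjb2) under edgeR, DESeq2, edgeR with DESeq2 size factors, TMM scaling, sex as a covariate and the replicate block. In replicates 2 and 3 only, 3 deafness genes were lower, 1668 of all genes were called, and 3 of the further deafness genes were higher and 10 lower; Slc26a4, Tmie, Eya4 (adjusted p = 0.0607) and Tbc1d24 lost their calls there, and Myh14 (adjusted p = 0.0676) and Tbc1d24 in replicates 1 and 4 only. Without the filter Tmie had an adjusted p of 0.0576 and Tbc1d24 of 0.0647. Leaving out 1 library gave 0 to 1 deafness genes higher, 6 to 7 lower, 3887 to 4610 of all genes called, 5 to 7 further deafness genes higher and 19 to 24 lower, and 27 expressed in control each time. Among the tested deafness genes, the replicate block changed no call other than those of Gjb2 and Ildr1; with it 29 of the further deafness genes were lower and 5908 of all genes were called.

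Log2 fold changes near 0 changed sign under edgeR, DESeq2, edgeR with DESeq2 size factors and TMM scaling, in that order, for Crym (0.045, 0.049, 0.049, 0.045), Diaph1 (0.048, 0.051, 0.051, 0.046) and Wfs1 (0.057, 0.061, 0.061, 0.055). They did so in replicates 2 and 3 only for Crym (0.034), Wfs1 (0.10), Tprn (-0.028) and Cdh23 (-0.19), and in replicates 1 and 4 only for Diaph1 (0.0095). With limma without the filter Lrtomt was at -0.029, Myo15 at -0.016 and Ptprq at -0.033, against positive edgeR estimates. Leaving out 1 library gave ranges across 0 for Cdh23 (-0.15 to 0.32), Crym (-0.10 to 0.025), Diaph1 (-0.049 to 0.025), Marveld2 (-0.0042 to 0.065), Rdx (-0.0079 to 0.067), Tprn (-0.046 to 0.062) and Wfs1 (-0.075 to 0.057). The cause was not tested. The depth was such that 1 read was worth 0.0112 to 0.0154 CPM, and 7 deafness genes had too few reads for either test.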
